A study of Mus musculus with 60 samples.

Results

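The 10 genes at the core of the circadian clock were followed through the prefrontal cortex of young mice that had received fluoxetine, lithium or vehicle through their mothers' milk. They were chosen by name for their place in the clock, but with earlier results of these data known. They are the period genes Per1, Per2 and Per3, the cryptochrome genes Cry1 and Cry2 and the activator genes Arntl and Clock. The others are the nuclear receptor genes Nr1d1 and Nr1d2 and the output gene Dbp. All 10 were among the 18088 genes of the deposited table and all 10 passed the filter on low values, which 17807 genes passed. RNA was sequenced from 60 mice of the C57BL/6J strain on postnatal day 25, after 3 weeks of treatment from day 3 to day 24, with 5 libraries in each of 12 groups. The groups were heterozygotes for the N2373K allele of Chd8 (Chd8+/N2373K, here Het) given fluoxetine, lithium or vehicle, and wild-type mice (WT) given fluoxetine, lithium or vehicle, each as males and as females. Chd8 encodes a chromatin remodeling protein linked to autism, fluoxetine is a selective serotonin reuptake inhibitor and lithium is a mood stabilizer. The mutant is known here by 1 allele, and neither the litters nor the time of day of dissection is given in the sources used here, so a p-value here speaks only of the variation among these libraries.

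The mammalian clock is a loop of transcription and repression that turns over once a day in nearly every cell. The proteins of Arntl (also called Bmal1) and Clock pair up and bind E-box sequences in the period, cryptochrome, Nr1d1, Nr1d2 and Dbp genes, and the period and cryptochrome proteins return to the nucleus and hold that pair back. The REV-ERB receptors encoded by Nr1d1 and Nr1d2 repress Arntl, and DBP drives genes with D-box sequences such as Per3. In cortex the clock genes cycle in step with sleep and wakefulness, and Per1 is also an immediate response gene that neuronal activity and glucocorticoids can switch on without the loop.

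Values are normalized counts, which are the authors' reads per gene divided by 1 size factor per library. The libraries held 24.05 to 31.65 M reads. As a check of the genotypes, Chd8 had a mean of 2675 ± 134 against 3089 ± 57 in vehicle males (SD, n = 5 each) and 2634 ± 77.2 against 3120.4 ± 117 in vehicle females. It was called lower in the Het group in 5 of the 6 pairs of groups of 1 sex and treatment, and in lithium males it stood at -0.19 (adjusted p = 0.245). The summed level of 10 cortical neuron markers ran from 139794 to 217036 in all libraries. Levels of 12 olfactory bulb markers, summed in the same way, ran from 4109 to 45306. Those of 10 striatal markers ran from 5542 to 29007, and those of 8 choroid plexus markers from 114 to 15821. Whether the dissections differed at their edges was not tested. For the olfactory bulb list alone, the 16 libraries with the highest score were left out in an alternative analysis. These 16 were 3 of the 5 Het fluoxetine females, 2 Het fluoxetine males, 1 Het lithium male, 2 Het vehicle females, 3 Het vehicle males, 2 WT lithium females, 2 WT vehicle females and 1 WT vehicle male. Of 8 markers of the suprachiasmatic nucleus, the master clock of the hypothalamus, 4 had rows analysed here, with a summed level of 1332 to 2232.

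All 10 genes were read in every library, with at least 323 reads for the least abundant, Cry1. To set levels of different genes side by side, each normalized count was divided by the length of the gene's merged exons in kilobases. In the 10 WT vehicle libraries Nr1d1 stood highest, at 818 ± 73.2 normalized counts per kb (SD over libraries), and its range did not meet that of the next gene. Nr1d2 at 639 ± 24.3, Cry2 at 622 ± 30.4, Per1 at 559 ± 39.6 and Dbp at 541 ± 38.4 per kb followed as a run in which each gene's range overlapped that of its neighbor. Per2 at 276 ± 36.9 and Clock at 248 ± 8.71 per kb overlapped each other, as did Per3 at 154 ± 11 and Cry1 at 141 ± 14.9 per kb. Arntl was lowest at 105 ± 4.78 per kb, below Cry1 in 10 of 10 libraries. This order depends on the length used, and merged exons can be longer than the transcripts present. Before the division Arntl (7.523 kb) averaged 789 normalized counts in these libraries and Cry1 (3.34 kb) 472.

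The genes differed in how much of their variation went with treatment. Of the variance of log2 values over the 60 libraries, treatment took 72.56% for Per1, 50.56% for Nr1d1 and 47.9% for Per2. It took 31.03% for Per3, 26.63% for Dbp, 22.72% for Nr1d2 and 13.91% for Arntl, and 2.73% for Cry2, 1.4% for Cry1 and 1.33% for Clock. The median over all tested genes was 10.69%. Genotype took at most 8.79% for any of the 10 (Arntl, with Dbp next at 8.44%), where the median over all tested genes was 1.27%. Sex took at most 1.59%, where that median was 0.57%. Clock and Nr1d2 were also the steadiest within groups, with residual SDs of 0.07 and 0.08 on the log2 scale, against 0.17 for the median gene.

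The comparison of fluoxetine with vehicle asks which clock genes answered the drug in each genotype and sex. Per1, a repressor of the loop, was lower under fluoxetine in all 4 combinations of genotype and sex. Per2 was called lower in 3 of the 4 and Nr1d1 in 3 of the 4, and Cry2 was called higher in Het males. The activators Arntl and Clock, the output gene Dbp, Per3 and Nr1d2 passed the test in none of the 4. In bulk tissue, fewer cells of a type and less RNA per cell cannot be told apart. In Het males 3 of the 10 genes passed the test where 22.7% of all tested genes did, 1 of them higher (12% of all genes) and 2 lower (10.7%). In Het females 3 of 10 passed, all lower, where 15.1% of all genes passed and 8.04% were lower. In WT males 2 of 10 passed, both lower, where 1.34% of all genes passed and 1.09% were lower. In WT females 3 of 10 passed, all lower, where 2.5% of all genes passed and 1.9% were lower. Without the 16 libraries rich in olfactory bulb markers 5 of the 11 calls remained, those of Per1 in Het females, WT males and WT females and those of Nr1d1 in Het females and WT males.

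Per1 lies on chromosome 11 (chr11:69095217-69109960, plus strand, GRCm38, GENCODE M21). In WT males its normalized counts were 1964, 1753, 2212, 2026 and 2338 in the fluoxetine libraries, against 2924, 3091, 3294, 3366 and 3056 in the vehicle libraries (log2 difference -0.62, SE 0.10, adjusted p = 0.000151). Every fluoxetine library lay below every vehicle library, and Per1 fell by 34.8%. In WT females it had 1971, 2019, 2012, 2162 and 2079.7 under fluoxetine and 2737, 3469, 3344, 3099 and 3075 under vehicle (log2 difference -0.61, SE 0.10, adjusted p = 0.000139). The ranges did not meet, and the fluoxetine libraries sat close together. In Het females the counts were 1839, 2047, 2238, 1953 and 2279 under fluoxetine and 2973, 3322, 2622, 3235 and 3089 under vehicle, again without overlap (log2 difference -0.56, SE 0.10, adjusted p = 0.000197).

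In Het males 1 library went against this direction. Per1 stood at 1669, 1658, 3226, 2101 and 2227 in their fluoxetine libraries and at 2860.4, 2673, 2876, 2521 and 3201 in their vehicle libraries (log2 difference -0.42, SE 0.10, adjusted p = 0.00258). The 4 other fluoxetine libraries lay below all 5 vehicle libraries, but replicate 3 of the fluoxetine group lay above all of them. Without it the log2 difference was -0.57 (adjusted p = 2.6e-05). The call was lost when only the 2 groups compared entered the fit (adjusted p = 0.127) and without the 16 libraries rich in olfactory bulb markers (-0.43, adjusted p = 0.117). All 4 Per1 calls remained with each library left out in turn. Averaged over both sexes, Per1 fell by 28.6% in Het mice (log2 difference -0.49, SE 0.07, adjusted p = 1.04e-06) and fell by 34.7% in WT mice (log2 difference -0.62, SE 0.07, adjusted p = 1.61e-08).

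Per1 and Nr1d1 have start sites in the promoter sequences of RefSeq (build GRCm38.p6), which held 13 windows for 9 of the 10 genes, each 250 bases before to 50 bases after a start. Their windows are shown because both genes were lower under fluoxetine, with Per3 beside them for its D-boxes. Per2, also called lower under fluoxetine, is the gene without a window, so it was not searched. Capitals mark every match, on either strand, to the E-box CACGTG, the noncanonical E-box CACGTT, the D-boxes TTATGTAA or TTACGTAA, the ROR element core TAGGTCA, the cyclic AMP response element TGACGTCA and its core TGACG, which the full element contains.
Per1, the first start, chr11:69098699-69098998, plus strand: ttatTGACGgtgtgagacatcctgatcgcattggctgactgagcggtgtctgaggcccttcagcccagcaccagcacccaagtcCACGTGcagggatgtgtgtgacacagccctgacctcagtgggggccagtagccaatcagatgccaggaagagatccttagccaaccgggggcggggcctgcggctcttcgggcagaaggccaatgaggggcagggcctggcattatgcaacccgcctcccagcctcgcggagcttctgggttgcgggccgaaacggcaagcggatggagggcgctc
Per1, the second start, chr11:69099902-69100201, plus strand: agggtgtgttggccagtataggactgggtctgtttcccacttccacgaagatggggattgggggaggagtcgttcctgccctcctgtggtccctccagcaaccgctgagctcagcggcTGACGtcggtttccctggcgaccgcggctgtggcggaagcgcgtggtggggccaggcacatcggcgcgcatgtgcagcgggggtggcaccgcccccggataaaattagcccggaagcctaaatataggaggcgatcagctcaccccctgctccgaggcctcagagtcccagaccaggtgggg
Nr1d1, chr11:98775328-98775627, minus strand: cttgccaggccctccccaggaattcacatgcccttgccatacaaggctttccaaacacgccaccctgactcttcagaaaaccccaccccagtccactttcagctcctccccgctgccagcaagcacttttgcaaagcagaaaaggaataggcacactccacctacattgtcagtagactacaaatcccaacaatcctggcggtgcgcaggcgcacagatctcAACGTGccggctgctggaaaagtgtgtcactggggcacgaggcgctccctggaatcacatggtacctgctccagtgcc
Per3, chr4:151044616-151044915, minus strand: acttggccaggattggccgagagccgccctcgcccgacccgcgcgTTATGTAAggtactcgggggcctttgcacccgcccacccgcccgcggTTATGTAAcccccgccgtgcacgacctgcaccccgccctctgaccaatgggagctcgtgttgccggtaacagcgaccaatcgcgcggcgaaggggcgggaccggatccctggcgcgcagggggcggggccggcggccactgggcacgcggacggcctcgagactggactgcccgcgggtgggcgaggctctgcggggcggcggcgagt
In the first Per1 window an E-box began 166 bases before the start, at -166, and TGACG at -246, and in the second TGACG began at -132. Nr1d1 had CACGTT at -28 on the opposite strand, and Per3 had TTATGTAA at -205 and again at -158. Of the other genes, Cry1 held an E-box at -60, CACGTT at -79 and TGACG at -8, Cry2 held CACGTT at -166 and TGACG at -209, and 1 of 2 Arntl windows held TAGGTCA at 31 bases after the start. No letters searched were in the windows of Clock, Nr1d2 and Dbp. Among all 32851 windows of this length, 7.15% held CACGTG, 4.68% CACGTT, 1.06% a D-box, 2.61% TAGGTCA, 1.79% TGACGTCA and 20.81% TGACG. These matches describe the letters and were not measured as bound sites.

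**Figure D1:**
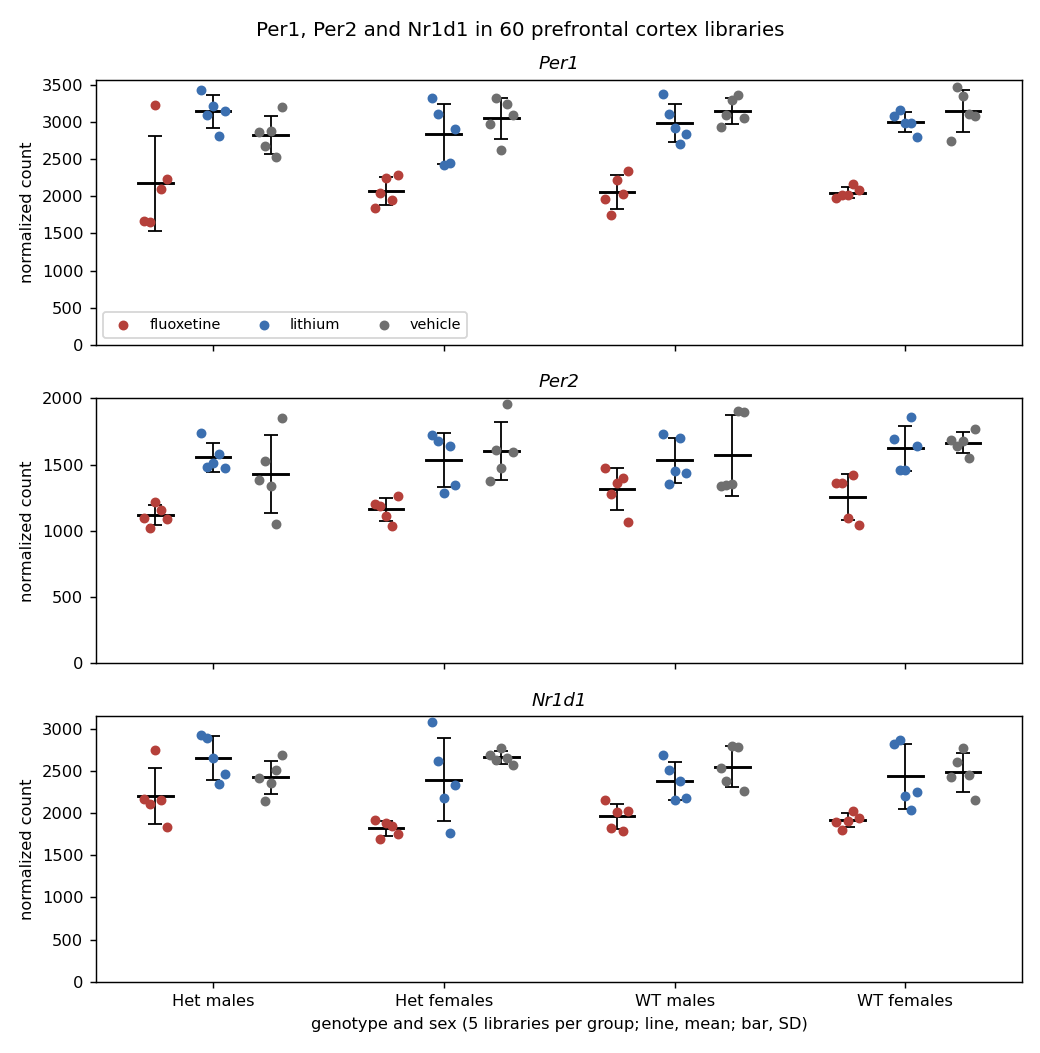
Normalized counts of Per1, Per2 and Nr1d1 (vertical axes, from 0) in the 5 libraries of each group, with fluoxetine, lithium and vehicle from left to right within each genotype and sex. Points are libraries, lines are means and bars are SDs, and in Het females and WT females the fluoxetine points of all 3 genes lie below the vehicle points, while in Het males replicate 3 of the fluoxetine group stands at the top for Per1 and Nr1d1.

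Per2, the other light- and activity-responsive period gene, lies on chromosome 1 (chr1:91415982-91459324, minus strand). In Het females its normalized counts were 1203, 1189, 1115, 1039 and 1261 under fluoxetine and 1374, 1608, 1473, 1954 and 1594 under vehicle (log2 difference -0.46, SE 0.11, adjusted p = 0.00389). In WT females they were 1361, 1364, 1099, 1421 and 1040.3 under fluoxetine and 1687, 1640.5, 1679.6, 1546 and 1764 under vehicle (log2 difference -0.41, SE 0.11, adjusted p = 0.0294). In both sets of females the ranges were apart. In Het males Per2 had 1098, 1022, 1219, 1159 and 1090.3 under fluoxetine and 1386, 1525, 1337, 1051 and 1853 under vehicle (log2 difference -0.33, SE 0.11, adjusted p = 0.0246), where 1 vehicle library, replicate 4, lay among the fluoxetine values. WT males had 1474, 1276, 1364, 1396 and 1067 under fluoxetine and 1340.2, 1344, 1353, 1906 and 1899 under vehicle, the groups overlapped, and the difference did not pass (log2 difference -0.24, SE 0.11, adjusted p = 0.385).

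The Per2 call in Het males ended without fluoxetine replicate 2 or without vehicle replicate 2 or 5 (log2 difference -0.30 to -0.23, adjusted p 0.0538 to 0.12), with only the 2 groups in the fit (adjusted p = 0.122) and with array weights (adjusted p = 0.102). In WT females it ended without fluoxetine replicate 3 or 5 or vehicle replicate 3 or 5 (log2 difference -0.41 to -0.35, adjusted p 0.052 to 0.131). Without the 16 libraries rich in olfactory bulb markers none of the 3 Per2 calls remained, with log2 differences of -0.44 in Het males, -0.47 in Het females and -0.42 in WT females. Averaged over both sexes, Per2 fell by 23.9% in Het mice (log2 difference -0.39, SE 0.08, adjusted p = 0.000114) and fell by 20.3% in WT mice (log2 difference -0.33, SE 0.08, adjusted p = 0.00435), and these averages passed with each library left out in turn.

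Per3, the period gene least needed for the loop itself (chr4:151003652-151044665, minus strand), was not called. Its log2 differences under fluoxetine were 0.15 in Het males, -0.07 in Het females, 0.09 in WT males and 0.04 in WT females, and none passed (adjusted p 0.299 or more). Without fluoxetine replicate 3 the value in Het males was 0.06. The 95% intervals of the sex averages, -0.11 to 0.19 in Het mice and -0.08 to 0.21 in WT mice, lay above those of Per1, -0.63 to -0.34 and -0.76 to -0.47.

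The cryptochromes, which carry the repression of the loop together with the period proteins, were not called lower under fluoxetine. Cry2 (chr2:92403646-92434043, minus strand) had 3834, 3454, 5826, 4430.3 and 3976 in Het fluoxetine males and 3279, 3667, 3661, 3118 and 4113 in Het vehicle males (log2 difference 0.25, SE 0.10, adjusted p = 0.0475). The groups overlapped, and fluoxetine replicates 3 and 4 lay above every vehicle library. Without that library the log2 difference was 0.14 (adjusted p = 0.323), and the call also ended without fluoxetine replicate 4 or any of vehicle replicates 1 to 4 and in 7 of 14 other settings. In the other 3 comparisons the Cry2 difference was 0.05 in Het females, -0.08 in WT males and -0.0011 in WT females, none called. Over both sexes Cry2 stood at 0.15 in Het mice (adjusted p = 0.0773), and it passed without fluoxetine male 2, fluoxetine female 1 or vehicle male 5 (log2 difference 0.18 to 0.19, adjusted p 0.0255 to 0.0401). Cry2 shares 295 exonic bases, 4.67% of its exons, with D930015M05Rik on the other strand, so its value is uncertain to that extent.

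Cry1 (chr10:85131700-85185064, minus strand) was not called in a single sex, but passed as higher in Het mice when both sexes were averaged (log2 difference 0.23, SE 0.08, adjusted p = 0.0224). Het males had 479, 467, 634, 492 and 463 under fluoxetine and 503, 417, 449.9, 355 and 483 under vehicle, and Het females had 419, 588, 477, 424 and 602 under fluoxetine and 365, 446, 422, 402 and 425 under vehicle. The ranges overlapped in both sexes, and the call ended without fluoxetine male replicate 3, fluoxetine female replicate 2 or 5, or vehicle male replicate 4 (log2 difference 0.19 to 0.20, adjusted p 0.0557 to 0.0686). It also ended with values rescaled to the same total (log2 difference 0.20, adjusted p = 0.0588) and without the 16 libraries rich in olfactory bulb markers (log2 difference 0.27, adjusted p = 0.115). In Het females alone Cry1 stood at 0.27 (adjusted p = 0.102, or 0.0487 without fluoxetine female 1). In WT mice the average was -0.13 and did not pass. The difference between the genotypes' responses was 0.36 with a 95% interval of 0.13 to 0.60 and an adjusted p of 0.0692 in limma. DESeq2 on the recovered reads gave 0.37 with an adjusted p of 0.0451, and limma also called it without any one of 5 single libraries (adjusted p 0.0415 to 0.04997), namely fluoxetine male 1, fluoxetine female 1 and vehicle female 2 of the Het groups and fluoxetine male 5 and fluoxetine female 4 of the WT groups. With array weights it also passed (adjusted p = 0.0138), as did the same difference for Cry2 (adjusted p = 0.0423, against 0.241 without weights).

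Nr1d1 (chr11:98767932-98775333, minus strand) encodes REV-ERB alpha, the receptor that represses Arntl. In Het females its counts were 1915, 1691, 1881, 1848 and 1757 under fluoxetine and 2692, 2630.0, 2776, 2651 and 2569.7 under vehicle (log2 difference -0.55, SE 0.10, adjusted p = 0.000121). In WT males they were 2152, 1818, 2012, 1793 and 2025 under fluoxetine and 2541, 2378, 2799, 2787 and 2258 under vehicle (log2 difference -0.38, SE 0.10, adjusted p = 0.0268). WT females had 1894, 1799, 1906, 2029 and 1942 under fluoxetine and 2431, 2607, 2775, 2448 and 2156 under vehicle (log2 difference -0.37, SE 0.10, adjusted p = 0.0229). In these 3 sets all fluoxetine libraries lay below all vehicle libraries. Het males had 2163, 2109.8, 2747, 2161 and 1840.3 under fluoxetine and 2414, 2147, 2355, 2510.1 and 2689 under vehicle, with overlap and no call (log2 difference -0.14, SE 0.10, adjusted p = 0.286), and fluoxetine replicate 3 was again the highest of its group. Without that library the log2 difference was -0.23 (adjusted p = 0.111).

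The call for Nr1d1 in WT males ended without fluoxetine replicate 2 or 4 or vehicle replicate 1, 3 or 4 (log2 difference -0.38 to -0.34, adjusted p 0.059 to 0.1). In WT females it ended without fluoxetine replicate 2 or 5 or vehicle replicate 2, 3 or 4 (log2 difference -0.38 to -0.33, adjusted p 0.05005 to 0.0703), and without the 16 libraries rich in olfactory bulb markers (log2 difference -0.44, adjusted p = 0.0612). Averaged over both sexes Nr1d1 fell by 21.4% in Het mice (log2 difference -0.35, SE 0.07, adjusted p = 9.1e-05) and fell by 22.9% in WT mice (log2 difference -0.38, SE 0.07, adjusted p = 0.000135), and both averages passed with each library left out in turn. Nr1d1 and Thra, the thyroid hormone receptor gene on the other strand, share 263 exonic bases, 8.55% of the exons of Nr1d1, and how strand was used in counting is not stated. Thra was not called under fluoxetine, with log2 differences of 0.10 in Het mice and 0.12 in WT mice.

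Nr1d2 (chr14:18204054-18239127, minus strand), whose receptor REV-ERB beta shares the task of Nr1d1, stayed within -0.05 to 0.05 under fluoxetine. Its 95% intervals over both sexes, -0.03 to 0.10 in Het mice and -0.11 to 0.03 in WT mice, exclude a change of the size of Nr1d1. Arntl (chr7:113207465-113314126, plus strand), the target of these receptors, differed by 0.01 in Het mice (95% interval -0.10 to 0.11) and by 0.08 in WT mice (-0.02 to 0.18). Clock (chr5:76209868-76304792, minus strand), its partner, differed by 0.01 (-0.06 to 0.08) and -0.05 (-0.11 to 0.02). Dbp (chr7:45705088-45710203, plus strand), the output gene driven by that pair, differed by -0.05 in Het mice (-0.16 to 0.05) and -0.003 in WT mice (-0.11 to 0.10). None of these passed, and with values rescaled to the same total Arntl and Clock in Het mice stood on the other side of 0, at -0.03 and -0.02. Over both sexes 4 of 10 genes passed in Het mice where 32.9% of all genes did, 1 higher (16.9% of all genes) and 3 lower (16%). In WT mice 3 of 10 passed, all lower, where 8.2% of all genes passed and 5.06% were lower.

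Other gene groups moved in the same comparisons. Of 20 genes that neuronal activity induces, fluoxetine lowered 14 in Het males, 13 in Het females, 13 in WT males and 14 in WT females, and raised none. Their median log2 differences were -0.69, -0.67, -0.80 and -0.90 in that order, where the medians of all genes were within 0.01 of 0. Arc, an activity-induced gene of the synapse, averaged 1586 ± 332 in WT fluoxetine males and 5058 ± 886 in WT vehicle males (SD, n = 5 each; log2 difference -1.68, SE 0.23, adjusted p = 7.45e-06). Fos, a transcription factor of the same kind, stood at -1.24, -1.12, -1.19 and -1.45 in that order, all called. Of all 17807 tested genes, 1903 were called lower in Het males, 1431 in Het females, 194 in WT males and 338 in WT females. Those called higher numbered 2134, 1260, 44 and 108 in that order. A list of 17 glucocorticoid-induced genes had 12 called higher in Het males, 6 in Het females and 0 in WT males or females in limma (at an unadjusted p under 0.05, 5 in WT males and 9 in WT females). In WT mice its median was 0.14 in males and 0.30 in females. Fkbp5, a gene of that list whose product is a cochaperone of the glucocorticoid receptor, stood at 1.04 in Het males and 0.90 in Het females, both called, and at 0.50 (adjusted p = 0.154) in WT males and 0.58 (adjusted p = 0.0509) in WT females. Tsc22d3 was called in Het males alone, at 0.31. The part of these lists in the clock gene results was not tested.

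Markers of other cell types also moved with fluoxetine in Het mice. Of all 17807 tested genes, 1260 were called higher and 1431 lower in Het females, and 1903 were called lower in Het males. In Het females 8 of 12 oligodendrocyte markers were higher (summed level 117905 to 211772 under fluoxetine and 35030.1 to 165971 under vehicle) and 4 of 8 endothelial markers were lower (6218 to 7925 and 6808 to 10408). In Het males 4 of 8 endothelial markers were lower (6659 to 8497 under fluoxetine and 7455 to 8487 under vehicle). So were 3 of 8 microglia markers (5897 to 12578 and 10339.9 to 11604). The microglia score is the mean of the markers' log2 values, each centered on its mean over all libraries. In Het fluoxetine males 1 to 5 it was 0.31, 0.04, -0.96, -0.04 and -0.35, against 0.07 to 0.22 in Het vehicle males. No marker of these lists was at 0 in a whole group, and in WT mice none of these lists had a called marker in a single sex. When the scores of olfactory bulb, striatum, choroid plexus and oligodendrocyte markers were entered as covariates, every call of Per1, Per2 and Nr1d1 under fluoxetine remained, and the call of Cry2 in Het males ended (log2 difference 0.22, adjusted p = 0.0708). The endothelial, microglia, activity-induced and glucocorticoid-induced scores were not among these covariates. The fit therefore cannot decide whether cell makeup has a part in the calls.

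**Figure D2:**
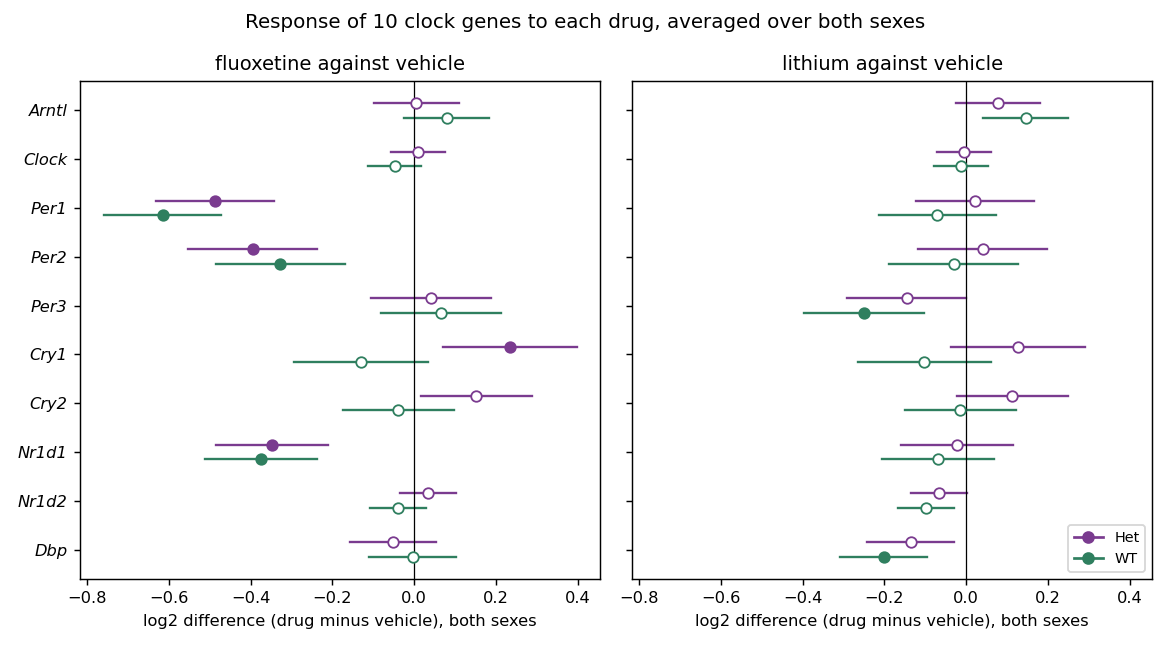
Log2 difference of each drug from vehicle averaged over both sexes (horizontal axis) for the 10 genes, Het above WT in each row. Bars are 95% intervals and filled points passed the adjusted p of 0.05, so that Per1, Per2 and Nr1d1 stand left of 0 under fluoxetine in both genotypes and Per3 and Dbp do so under lithium in WT mice.

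Lithium, which is known to inhibit the clock kinase GSK3 beta, was compared with the same vehicle libraries. None of the 10 genes passed in any of the 4 comparisons within a sex, by limma, edgeR or DESeq2, and of the 40 tests 9 had an unadjusted p under 0.05. The share of all genes called was 2% in Het males, 0.629% in Het females, 0.0786% in WT males and 0.118% in WT females. Averaged over both sexes, Dbp and Per3 were lower in WT mice, 2 of 10 genes where 2.97% of all genes were called and 1.07% were lower. In Het mice 0 of 10 passed in limma, edgeR or DESeq2 (1 at an unadjusted p under 0.05, Dbp) where 9.14% of all genes were called.

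Dbp, a transcription factor whose level follows the activity of the Arntl and Clock pair closely, had 1470.3, 1519, 1365, 1403 and 1375 normalized counts in WT lithium males and 1588, 1599, 1684, 1527 and 1736 in WT vehicle males. In WT females the values were 1381, 1453, 1373, 1359.8 and 1355 under lithium and 1787, 1627, 1729, 1470.0 and 1450.3 under vehicle. The male groups were apart, and in females 1 lithium library, replicate 2, lay above the lowest vehicle library. The log2 difference over both sexes was -0.20 (SE 0.05, adjusted p = 0.024), and it missed the threshold without WT vehicle male 5 or WT vehicle female 1 (log2 difference -0.19 to -0.18, adjusted p 0.052 to 0.0536). Dbp shares 539 exonic bases, 18.01% of its exons, with Sphk2 on the other strand, and Sphk2 was not called there (log2 difference 0.12, adjusted p = 0.127).

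In Het mice Dbp had 1522, 1373, 1354, 1406 and 1400.2 in lithium males and 1410.2, 1419, 1523, 1342 and 1544 in vehicle males, with wide overlap. Het females had 1651, 1432, 1069.6, 1354 and 1339.5 under lithium and 1629, 1457, 1736, 1803 and 1393 under vehicle, where lithium replicate 1 alone lay among the higher vehicle values. The average over both sexes was -0.14 (adjusted p = 0.0946). It passed without lithium female 1 or vehicle female 5 (log2 difference -0.17 to -0.16, adjusted p 0.033 to 0.0478) and without the 16 libraries rich in olfactory bulb markers (-0.25, adjusted p = 0.0238). The difference between the genotypes' responses was 0.07 (95% interval -0.08 to 0.22) and did not pass.

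Per3 had 1172, 1269.8, 1238, 1172 and 1538 in WT lithium males and 1465, 1463, 1351, 1477 and 1658 in WT vehicle males, where lithium replicate 5 was the only one above the lowest vehicle library. WT females had 1151, 1159, 1186, 1336 and 1231 under lithium and 1636, 1482, 1521, 1349 and 1391 under vehicle, without overlap. Over both sexes Per3 fell by 15.9% (log2 difference -0.25, SE 0.07, adjusted p = 0.045). The call sat at the threshold and ended in 16 of 20 fits that each left out 1 library (log2 difference -0.26 to -0.23, adjusted p 0.0526 to 0.0936). It held without lithium male 5, lithium female 4, vehicle male 3 or vehicle female 4, and ended without the 16 libraries rich in olfactory bulb markers (log2 difference -0.27, adjusted p = 0.0918). In Het mice the average was -0.15 (95% interval -0.29 to 0.00064, adjusted p = 0.201), and with array weights it passed (adjusted p = 0.0474). Without the 16 libraries both Per3 and Dbp passed in Het females alone, at -0.37 (adjusted p = 0.0461) and -0.34 (adjusted p = 0.0109).

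**Figure D3:**
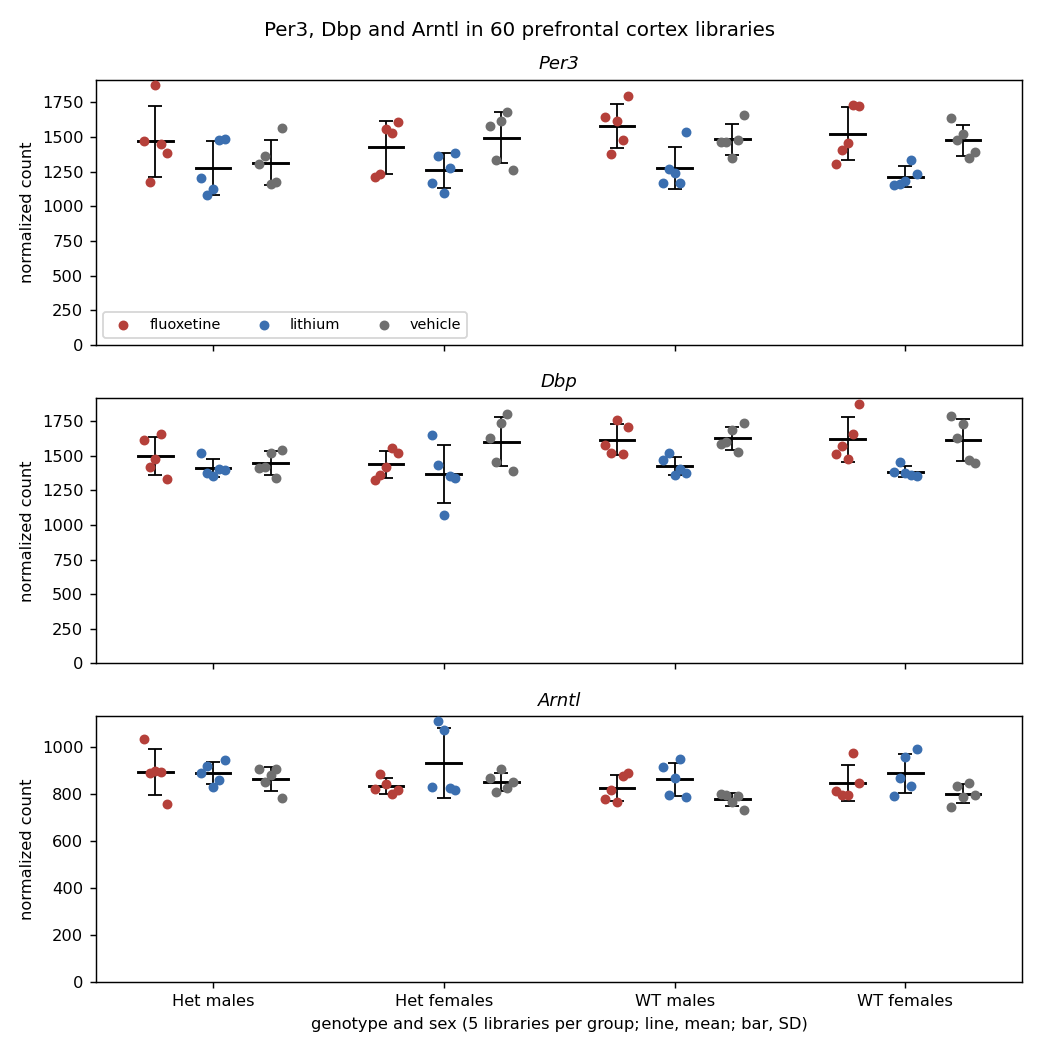
Normalized counts of Per3, Dbp and Arntl (vertical axes, from 0) in the 5 libraries of each group, with fluoxetine, lithium and vehicle from left to right within each genotype and sex. Points are libraries, lines are means and bars are SDs, and in WT mice the lithium means of Per3 and Dbp lie below the vehicle means while those of Arntl lie above, without a call for Arntl.

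The activator Arntl had 913, 795, 867, 948 and 788 in WT lithium males and 802, 796, 764, 791 and 732 in WT vehicle males, and 793, 869, 957, 832 and 991 in WT lithium females and 744, 836, 788, 846 and 796 in WT vehicle females. Both pairs of groups overlapped. Its average of 0.15 in WT mice (95% interval 0.04 to 0.25) did not pass (adjusted p = 0.107), and with array weights it did pass (adjusted p = 0.0125). Nr1d2 stood at -0.10 in WT mice (adjusted p = 0.0976), and 3 of the 14 other settings called it. Per1, Per2 and Nr1d1, the genes that answered fluoxetine, had log2 differences under lithium of 0.02, 0.04 and -0.02 in Het mice and -0.07, -0.03 and -0.07 in WT mice, none called. Their 95% intervals in WT mice were -0.21 to 0.07, -0.19 to 0.13 and -0.20 to 0.07. Of the 20 activity-induced genes 1 passed under lithium over both sexes in Het mice, where 9.14% of all genes did. In WT mice 0 passed, where 2.97% of all genes did. Fkbp5 of the glucocorticoid-induced list was higher in Het mice at 0.51 (adjusted p = 0.00534) and stood at 0.39 in WT mice (adjusted p = 0.0593), and its part in the lithium values was not tested.

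The 2 drugs were set against each other directly, which leaves the shared vehicle libraries out. Per1, Per2 and Nr1d1 were lower under fluoxetine than under lithium in both genotypes. In Het mice, where 25% of all genes were called (12.4% higher and 12.6% lower), 4 of 10 passed, with Per1 at -0.51 (adjusted p = 3.61e-07), Per2 at -0.44 (adjusted p = 3.2e-05), Nr1d1 at -0.32 (adjusted p = 0.000285) and Nr1d2 at 0.10 (adjusted p = 0.0244). In WT mice, where 7.74% of all were called (2.95% higher and 4.78% lower), 5 of 10 passed, with Per1 at -0.55 (adjusted p = 2.58e-07), Per2 at -0.30 (adjusted p = 0.011) and Nr1d1 at -0.31 (adjusted p = 0.00186). Per3 and Dbp were higher under fluoxetine than under lithium in WT mice, at 0.32 (adjusted p = 0.00316) and 0.20 (adjusted p = 0.0116), and these calls held with each library left out in turn.

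In single libraries Per1 set the drugs apart but for 1 mouse. Over 20 libraries each, Per1 ran from 1658 to 3226 with a median of 2037 under fluoxetine, from 2416 to 3426 with a median of 3033 under lithium, and from 2521 to 3469 with a median of 3082 under vehicle. The fluoxetine libraries lay below the whole lithium range except for Het male replicate 3. For Per3 the order differed, with 1174 to 1874 with a median of 1474 under fluoxetine, 1083 to 1538 with a median of 1219 under lithium and 1164 to 1679 with a median of 1464 under vehicle, all overlapping. In Het mice Per3 differed between the drugs by 0.19 (adjusted p = 0.052), and several settings called it, among them the fit without the 16 libraries rich in olfactory bulb markers (0.31, adjusted p = 0.0111) and fits without Het fluoxetine male 2, fluoxetine female 1 or 2, lithium male 4 or 5, or lithium female 2 or 5 (adjusted p 0.0176 to 0.0422). The Nr1d2 call in Het mice ended without fluoxetine male 2, 3 or 5, fluoxetine female 5, lithium male 2 or lithium female 3 (log2 difference 0.08 to 0.09, adjusted p 0.0505 to 0.0867), and in 4 of 14 other settings, among them values rescaled to the same total (log2 difference 0.07, adjusted p = 0.153). Dbp in Het mice, at 0.08 (adjusted p = 0.26), passed without the 16 libraries (0.19, adjusted p = 0.0303).

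The Chd8 genotype left no call on the clock. None of the 10 genes passed between Het and WT mice in any of 6 comparisons within a sex and a treatment, by limma, edgeR or DESeq2, with 5 of the 60 tests at an unadjusted p under 0.05 and log2 differences from -0.23 to 0.26. The share of all genes called was 0.0168% in vehicle males, 0.0225% in vehicle females, 1.18% in fluoxetine males, 0.0393% in fluoxetine females, 0.00562% in lithium males and 0.0168% in lithium females. Averaged over both sexes, again 0 of 10 passed by any of the 3 tools under fluoxetine (7.33% of all genes called, 3 clock genes at an unadjusted p under 0.05), under lithium (0.0393% and 0 clock genes) and under vehicle (0.0562% and 1 clock gene).

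The largest of the differences between genotypes under vehicle, over both sexes, was that of Cry1 at -0.15 (95% interval -0.31 to 0.02). Arntl, at 0.12 (0.02 to 0.22), was the 1 gene at an unadjusted p under 0.05 there. Its counts were 907, 850.0, 879, 905 and 783 in Het vehicle males and 802, 796, 764, 791 and 732 in WT vehicle males, and 867, 809, 908, 824 and 851 in Het vehicle females and 744, 836, 788, 846 and 796 in WT vehicle females. The groups overlapped in both sexes (adjusted p = 0.612). Under fluoxetine Cry1 differed by 0.22 (adjusted p = 0.0835, or 0.0461 without Het fluoxetine female 1 and 0.0476 with array weights), Dbp by -0.14 (adjusted p = 0.0918) and Per2 by -0.17 (adjusted p = 0.174).

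Nor did the response to a drug differ between genotypes or sexes at the threshold. In 6 comparisons of the Het with the WT response, 0 of 60 tests passed in limma or edgeR and 1 in DESeq2, that of Cry1 given above, with 3 at an unadjusted p under 0.05. For Per1 the Het response to fluoxetine was 0.13 less negative (95% interval -0.08 to 0.33, or 0.05 without Het fluoxetine male 3), for Per2 the difference was -0.07 (-0.29 to 0.16) and for Nr1d1 0.03 (-0.17 to 0.22). Here 1.7% of all genes were called over both sexes, 0.927% in males and 0% in females, and 0% in each of the 3 comparisons for lithium. In 4 comparisons of the male with the female response 0 of 40 passed by any of the 3 tools, 2 at an unadjusted p under 0.05. The share of all genes called was 0.0112% for fluoxetine in Het mice and 0% in the other 3. Nr1d1 under fluoxetine in Het mice had the widest such gap, with 0.41 (95% interval 0.13 to 0.68, adjusted p = 0.225), or 0.32 without Het fluoxetine male 3. Male and female WT vehicle mice differed in 0 of 10 genes by any of the 3 tools, with none at an unadjusted p under 0.05, where 0.0674% of all genes were called.

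Clock genes can also vary from mouse to mouse within a group. After the group means were subtracted, 5 of the 45 pairs of genes correlated over the 60 libraries, all positively, and no pair negatively, by permutation of libraries within groups (100000 permutations, adjusted over the 45 pairs for both Pearson and Spearman). Per3 and Cry2 had r = 0.66 and rho = 0.53 (permutation p = 1e-05 for r, the smallest these permutations can give, and 0.00016 for rho, with adjusted p = 0.00045 and 0.00225). Clock and Nr1d2 had r = 0.64 and rho = 0.62 (permutation p = 4e-05 and 1e-05, adjusted 0.0009 and 0.00045). Per1 went with Cry2, at r = 0.59 and rho = 0.49 (permutation p = 0.00028 and 0.0004, adjusted 0.00383 and 0.0036), and with Nr1d1, at r = 0.54 and rho = 0.51 (0.00034 and 0.0002, adjusted 0.00383 and 0.00225). Per3 and Dbp had r = 0.47 and rho = 0.55 (permutation p = 0.0006 and 9e-05, adjusted 0.0054 and 0.00203).

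Without the 2 libraries farthest from the median of the first gene, r was 0.57 for Per3 and Cry2, 0.65 for Clock and Nr1d2, 0.42 for Per1 and Cry2, 0.48 for Per1 and Nr1d1, and 0.50 for Per3 and Dbp. Within males r was 0.80, 0.65, 0.60, 0.58 and 0.26 in that order, and 0 of 45 pairs passed on both measures over 30 libraries. Within females it was 0.46, 0.64, 0.58, 0.53 and 0.65, and 3 of 45 passed. Without the 16 libraries rich in olfactory bulb markers 10 pairs passed, and Per3 with Dbp was no longer among them (r = 0.27). Arntl had r between -0.38 and 0.07 to the other 9 genes. Its lowest, with Nr1d2, whose receptor represses it, was -0.38 (rho = -0.31, permutation p = 0.0331 and 0.0307, adjusted 0.115 and 0.126) and did not pass.

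**Figure D4:**
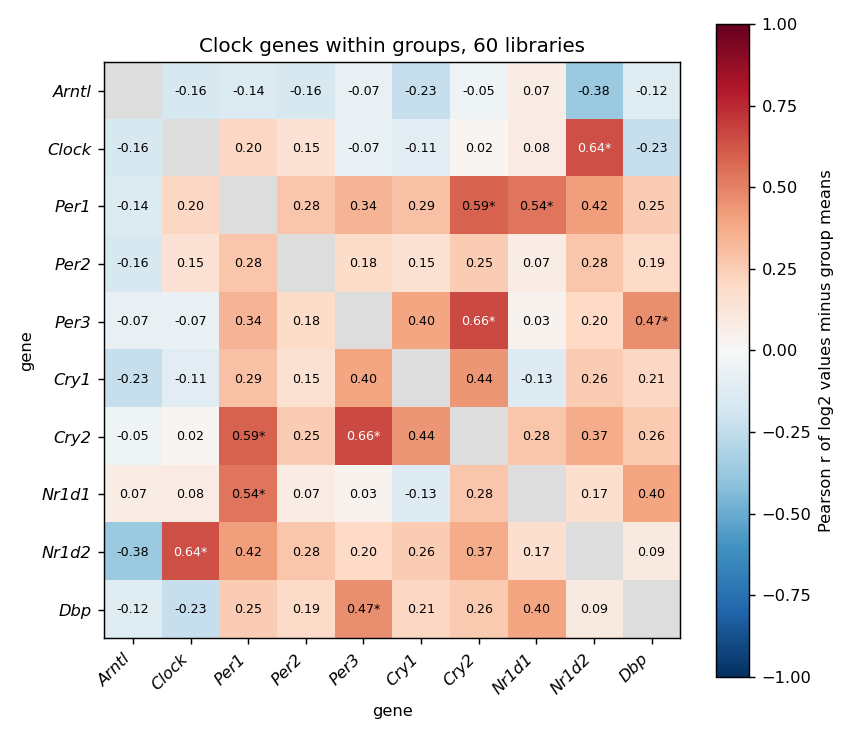
Pearson r between the log2 values of each pair of the 10 genes over 60 libraries after the group means were subtracted, on a color scale from -1 to 1. Asterisks mark the 5 pairs that passed on both Pearson and Spearman, among them Per3 with Cry2 (0.66) and Clock with Nr1d2 (0.64), and the Arntl row holds values from -0.38 to 0.07.

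The same residuals were set against the scores of 4 other gene lists, a family of 40 relations chosen after the values were seen. Here the 2 farthest libraries are those farthest from the median of the list's score after group means were subtracted, not of the clock gene. Per1 went with the activity-induced list (r = 0.44, rho = 0.42, permutation p = 0.00637 and 0.00275, adjusted 0.0319 and 0.022), with r = 0.34 without the 2 farthest libraries, 0.58 in males and 0.39 in females. Per3 went with the glucocorticoid-induced list (r = 0.69, rho = 0.65, permutation p = 1e-05 for both, adjusted 0.0004 for both), with r = 0.67 without the 2 farthest libraries, 0.79 in males and 0.59 in females. Cry2 did so at r = 0.56 (rho = 0.47, permutation p = 9e-05 and 0.00132, adjusted 0.0018 and 0.0203), with 0.49 without the 2 farthest, 0.75 in males and 0.34 in females. Cry1 did so at r = 0.45 (rho = 0.38, permutation p = 0.00102 and 0.00588, adjusted 0.0136 and 0.0392), with 0.40 without the 2 farthest, 0.44 in males and 0.45 in females. Per3 and Dbp ran against the olfactory bulb list, at r = -0.42 (rho = -0.42, permutation p = 0.0032 and 0.00251, adjusted 0.0193 and 0.022) and r = -0.37 (rho = -0.43, permutation p = 0.00309 and 0.00152, adjusted 0.0193 and 0.0203). Without the 2 farthest libraries these were -0.40 and -0.36, in males -0.37 and -0.39, and in females -0.49 and -0.38. The other 34 relations did not pass.

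For each gene, the 13688 genes of sufficient level were ranked by the Pearson r of their log2 values over the 60 libraries. The group means were subtracted before, so differences between group means play no part, but all genes share the depth and tissue makeup of their libraries. Single libraries far from their group stay in, and these r were not computed again without them. Per1 was most like Nab2 (0.82), Sntb2 (0.74) and Jade2 (0.73), the first a corepressor of EGR transcription factors. Per2 was most like Phf21b (0.61), Egr1 (0.57) and Rundc1 (0.56), where Egr1 is an activity-induced transcription factor, and Per3 was most like Slc9a5 (0.83), Diaph1 (0.83) and Lrrc58 (0.82). For the cryptochromes the genes were Stat3 (0.60), Creg1 (0.58) and Ssr3 (0.57) for Cry1 and Arfip2 (0.89), Brap (0.89) and Pcyox1 (0.88) for Cry2. The activator Arntl was most like Nrn1 (0.56), Gm4544 (0.56) and Pdk1 (0.55) and Clock most like Gabrb2 (0.91), Myo5a (0.87) and Ank3 (0.87). Nr1d1 was most like Vipr1 (0.68), Erf (0.64) and Nlgn2 (0.62), the first a receptor for vasoactive intestinal peptide, and Nr1d2 most like Fam126b (0.78), Neto1 (0.77) and Chic1 (0.76). Dbp was most like Kcnh4 (0.70), Tmem191c (0.66) and Jph3 (0.66). The values for Clock and Cry2 were higher than those for Arntl, Cry1 and Per2.

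Around the core of the loop, 28 further genes of the clock were examined, made of 5 partners of the activators and ROR receptors, 8 PAR bZIP and output genes, 7 kinases and ubiquitin ligases that act on clock proteins and 8 cofactors. Under fluoxetine 10 of the 28 passed in Het males (9 higher, 1 lower), 7 in Het females (5 higher, 2 lower), 1 in WT males (lower) and 0 in WT females in limma (9 at an unadjusted p under 0.05), beside the shares of all genes given above. The median log2 difference of the 28 was 0.08 in Het males, 0.09 in Het females, -0.02 in WT males and 0.00 in WT females. Calls of single genes of the 28 are given below from the full data alone, without the left-out fits shown for the core genes. Het fluoxetine male 3 scored 0.42 on the activator partners and ROR receptors, against 0.01 to 0.12 in the others of its group. On the PAR bZIP and output genes it scored 0.25, against -0.09 to 0.05. Its part in the Het male calls was not tested. Under lithium 1 of the 28 passed in Het males, where 2% of all genes did, and 1 in Het females, where 0.629% did. In WT males and WT females 0 passed (1 and 4 at an unadjusted p under 0.05), where 0.0786% and 0.118% of all genes did. Het and WT vehicle mice differed in 0 of the 28 in males or females (4 and 4), where 0.0168% and 0.0225% of all genes were called.

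Among the activator partners and the ROR receptors, which compete with the REV-ERBs, the calls were in Het mice. Npas2, which can stand in for Clock, rose by 0.24 on the log2 scale in Het fluoxetine males (adjusted p = 0.0428), and Rora, which activates Arntl, by 0.22 (adjusted p = 0.0459). Rorb, also a marker of cortical layer neurons, was lower in Het fluoxetine females at -0.34 (adjusted p = 0.0125).

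Among the output genes in Het males, the PAR bZIP factors that bind D-boxes together with DBP were higher under fluoxetine, Tef by 0.24 (adjusted p = 0.00586) and Hlf by 0.31 (adjusted p = 0.0075). Nfil3, which represses from D-boxes, averaged 142 ± 33.5 in Het fluoxetine males and 235 ± 52.5 in Het vehicle males (SD, n = 5 each) and was lower at -0.71 (adjusted p = 0.00263). The ubiquitin protease Usp2 was higher by 0.34 (adjusted p = 0.000992) and the cell cycle kinase Wee1 by 0.30 (adjusted p = 0.00663). Bhlhe40, the E-box repressor DEC1, was lower in Het females at -0.43 (adjusted p = 0.0237) and in WT males at -0.54 (adjusted p = 0.0222).

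Of the enzymes that mark clock proteins, the ubiquitin ligase subunit Fbxw11 was higher under fluoxetine in Het males at 0.15 (adjusted p = 0.0145) and in Het females at 0.16 (adjusted p = 0.0122). The casein kinase Csnk1e, which phosphorylates period proteins, was higher in Het females at 0.18 (adjusted p = 0.0134), and its relative Csnk1d was higher under lithium in Het males at 0.14 (adjusted p = 0.0403). Among cofactors, Tipin was higher in Het fluoxetine males at 0.36 (adjusted p = 0.0119). Nono at 0.23 (adjusted p = 0.00365) and the kinase subunit Prkaa1 at 0.18 (adjusted p = 0.0271) were higher in Het fluoxetine females. Sirt1, a deacetylase that acts on clock proteins, was lower in Het lithium females at -0.32 (adjusted p = 0.028).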

How the data were processed

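RNA-seq libraries (TruSeq Stranded mRNA kit, per the labels' protocols) came from 60 prefrontal cortices. Salmon 0.11.2, R 3.6.0, DESeq2 1.19.11 and the build GRCm38 stand in the submitters' processing notes, with no role given. The deposited values are a normalized signal: the authors divided whole reads by 1 size factor per library, since dividing by each column's step gave whole numbers for 100% of values at a tolerance of 0.001. The recovered reads numbered 24.05 to 31.65 M per library (median 28.32 M), and relative size factors ran from 0.818 to 1.0723. Symbols and coordinates came from GENCODE M21.

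Values were taken to log2(value + 1), the scale of all fold changes, on which changes of low genes look smaller than they are. The filter asked for a value of 10 or more in 5 or more libraries and left 17807 genes. In R 4.3.3, limma 3.58.1 with an intensity trend fitted 12 group means over 60 libraries (48 residual degrees of freedom). There were 34 two-sided comparisons, and a gene was called at a Benjamini-Hochberg adjusted p under 0.05 over all genes of a comparison. Because the values were normalized, limma was used and not edgeR, which the design kept for raw counts, and edgeR 4.0.16 and DESeq2 1.42.0 on the recovered reads were alternatives. Others were other scalings, pseudocounts, filters, array weights, covariates, a replicate block, and each library left out. The tests were checked on simulated data. No 2 replicates agreed within sampling noise (chi-square per degree of freedom 3.95 to 65.76 over 120 pairs). The replicate numbers did not pair samples.

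The members and the gene lists were chosen with earlier results of these data known. Named genes were the 10 members, the genes of the 28-gene clock list called in a main comparison, and the 3 genes most like each member by Pearson r of residuals, with Chd8 as a check and Arc, Fos, Fkbp5 and Tsc22d3 beside them. Of these, 1 gene of the 28-gene list is counted with it but not reported here. The relations to 4 list scores were added after seeing the data.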

Additional observations from a re-analysis of the deposited data

Results flagged for a closer look

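In 120 sets of 5 libraries (10 genes in 12 groups), 6 libraries stood far from the other 4 of their group, with a gap to the nearest of over 0.71 of the whole range. Chance flags about 1 in 20 such sets, which is 6 here. Per3 in WT lithium male 5 was 1538, above 1172 to 1269.8 in the others, and Dbp in WT lithium female 2 was 1453, above 1355 to 1381. Cry1 in Het fluoxetine male 3 was 634, above 463 to 492, and the same library was the highest of its group for Per1, Per2, Per3, Cry2 and Nr1d1. Fkbp5, a glucocorticoid-induced gene, was also highest in that library at 2466, while Arc, an activity-induced gene, was 1118, within its group. WT fluoxetine female 4 stood out for 2 genes, with Arntl at 976 against 794 to 845 and Clock at 3512 against 3140.4 to 3232. Nr1d2 in WT vehicle male 2 was lowest at 3346, below 3468 to 3512.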

How the results depend on the processing

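No called value changed direction under any setting, but 135 of the 340 gene-by-comparison differences, none of them called in the full data or under that setting, changed sign under at least 1 setting. The number of clock genes called under fluoxetine (11 of 40) was 5 without the 16 libraries rich in olfactory bulb markers. For lithium (0 of 40) it was 2 without those libraries (Per3 and Dbp in Het females) and 1 with array weights (Per3 in WT females). The residual correlations (5 of 45 pairs) numbered 10 without the 16 libraries, 0 in males only and 3 in females only. The fit without the 16 libraries has fewer samples in every group it touches, and the cause of its lost calls was not tested. With each library left out in turn, the counts ran from 8 to 12 for fluoxetine, 0 to 0 for lithium, 7 to 11 of 70 for the averages over both sexes, 8 to 11 of 120 for the interactions and direct drug comparisons (9 in the full data), and stayed at 0 for the single-sex comparisons of Het with WT, under vehicle and under a drug, and for sex.

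Replicate numbers did not pair the samples: none of 66 pairs of groups had all 5 correlations over 0.1, and the replicate block kept every count within 1.5 times of the main one (fluoxetine 11 of 40, averages 9 of 70, interactions and direct drug comparisons 10 of 120). Rescaling to equal totals moved the split of all calls under fluoxetine in Het males to 1108 higher and 2801 lower, from 2134 and 1903, and turned the sign of 25 clock gene differences, none called and none larger than 0.05 in the full data. Depth limits the genes with few reads, and 5 libraries per group limit the size of difference that can pass.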
